A study of Mus musculus with 24 samples.

Results

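The murinoglobulins and alpha-2-macroglobulins were followed in mouse liver as 5 genes, Mug1, Mug2, A2m, Pzp and A2ml1, found by their names among the 54532 genes of the count table. All 5 were present, 4 of them with reads in all 24 libraries. The family was chosen by the measured level of Mug2, which was among the genes with the largest falls in double knockout livers relative to livers without Cpt2 alone. That contrast is therefore described here without a test for any of the 5 genes, and Mug2 has no test against any group that entered it.

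RNA-seq was done on whole livers of male C57BL/6J mice, 8 to 10 weeks old by the study's methods, after a 24 h fast. There were 6 groups of 4 livers each. Rab30 is a small GTPase of the secretory pathway, and Cpt2 is the mitochondrial enzyme that long-chain fatty acids need before they can be oxidised. The groups were whole-body Rab30 knockouts (Rab30KO), wild-type littermates of these (Rab30 Ctrl), liver-specific Rab30 knockouts (Rab30 L-/-), liver-specific Cpt2 knockouts (Cpt2 L-/-), mice with both genes deleted in the liver (DKO), and littermates of the DKO with both genes floxed and no Cre, named ff;ff in the study and floxed controls below. Cre was driven by the albumin promoter in the 3 liver-specific groups, so deletion was aimed at hepatocytes while the RNA came from the whole organ, and the floxed controls were littermates of the DKO only. No group was fed, so every value belongs to the fasted state. Fewer cells of a type and less RNA per cell cannot be told apart in such samples.

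These proteins are broad inhibitors of proteases, secreted mostly by hepatocytes. A protease cuts an exposed bait region, the inhibitor closes around it, and an internal thioester bond can link the trapped enzyme covalently before the complex is cleared by the receptor Lrp1. In the mouse, Pzp is the main alpha-2-macroglobulin of plasma and is built of several subunits, whereas the murinoglobulins are single-chain relatives that are abundant in rodent blood. A2m is the mouse namesake of the human plasma inhibitor, known in the rat as a protein of the acute phase, and A2ml1 is best known from the epidermis.

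All 5 genes lie on chromosome 6 of the GRCm38 assembly. A2m, Mug1 and Mug2 form a cluster on the plus strand, at chr6:121635376-121679227, chr6:121838541-121889057 and chr6:122006761-122085965, and Mug2 starts 117.7 kb after the end of Mug1. Pzp and A2ml1 lie 6.4 Mb further along on the minus strand, at chr6:128483567-128526720 and chr6:128539821-128581608, with 13.1 kb between them. The family shares the sequence that codes for the thioester. Windows of 75 coding bases from exon 24 of each gene (GENCODE M21 transcripts) are shown with the 15 bases for the thioester segment in capitals, to show how closely the members match where the bond forms.
Mug1, chr6:121878937-121879011, plus strand: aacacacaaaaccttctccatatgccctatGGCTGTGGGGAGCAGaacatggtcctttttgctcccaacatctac
Mug2, chr6:122075171-122075245, plus strand: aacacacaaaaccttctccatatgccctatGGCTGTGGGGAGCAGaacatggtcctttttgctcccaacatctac
A2m, chr6:121668072-121668146, plus strand: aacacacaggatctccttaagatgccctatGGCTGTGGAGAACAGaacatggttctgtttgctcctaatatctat
Pzp, chr6:128491572-128491646, minus strand: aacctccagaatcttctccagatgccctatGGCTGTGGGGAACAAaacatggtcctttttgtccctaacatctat
A2ml1, chr6:128552229-128552303, minus strand: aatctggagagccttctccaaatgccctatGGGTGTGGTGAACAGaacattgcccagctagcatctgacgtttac
The Mug1 and Mug2 windows differed at 0 of 75 bases. Against Mug1, the window differed at 12 bases in Pzp, 14 in A2m and 23 in A2ml1. Over the whole coding sequence, Mug1 and Mug2 were 93.3% identical over 4436 aligned bases, and every other pair was between 53.9% and 67.3% identical.

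Mug1 and Mug2 were also alike upstream of their starts. The 250 bases before the RefSeq start of transcription are shown, 5' to 3', with capitals at bases that differ or lie in a gap of the alignment between them. They are shown because these close neighbours differed so much in level. The RefSeq start of Mug2 lies downstream of the start of the GENCODE gene, so the last bases of its window overlap that gene.
Mug1, GRCm38.p6, chr6:121838291-121838540, plus strand: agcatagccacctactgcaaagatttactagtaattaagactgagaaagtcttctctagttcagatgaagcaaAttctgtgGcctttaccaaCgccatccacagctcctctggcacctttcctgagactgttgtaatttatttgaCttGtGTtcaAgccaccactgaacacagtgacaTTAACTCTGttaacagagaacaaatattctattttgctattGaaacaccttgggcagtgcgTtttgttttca
Mug2, GRCm38.p6, chr6:122006548-122006797, plus strand: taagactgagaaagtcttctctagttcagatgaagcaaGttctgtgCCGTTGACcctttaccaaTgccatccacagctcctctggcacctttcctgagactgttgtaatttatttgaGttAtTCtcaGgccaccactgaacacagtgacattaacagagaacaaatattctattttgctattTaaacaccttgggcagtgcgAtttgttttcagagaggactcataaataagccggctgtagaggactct
The overlapping 222 positions held 196 identical bases (88.3%), 10 substitutions and 16 positions in gaps, whereas the other pairs among the 4 members with a RefSeq promoter aligned at 47.9% to 50.4%. The letters GTTAAT, the core of an HNF1 site, were searched on both strands and occurred 1 time in Mug1, 1 time in Mug2, 2 times in Pzp and 0 times in A2ml1, and 6.4% of 32851 RefSeq windows of this length held them. Neither TTCNNNGAA, a STAT motif (7.0% of windows), nor TTGCNNAA, a C/EBP motif (9.6%), was found in any of the 4, and TATAAA (12.4%) was found 1 time, in A2ml1.

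Library totals ranged from 11801027 to 24497738 counts. Whole-gene counts of Rab30 and Cpt2 include reads outside the deleted exons, so they do not check the labels, and the groups are named as labelled. Levels are given in CPM, counts scaled to library size. Rab30 stood at 5.38 to 17.4 CPM in Rab30KO and 6.63 to 30.1 in Rab30 Ctrl, and Cpt2 at 95.2 to 167 CPM in Cpt2 L-/- and 128 to 139 in the floxed controls, so both overlapped. Cpt2 in DKO, at 96.0 to 120 CPM, lay below the floxed controls. Rab30 was at 10.4 to 26.6 CPM in Rab30 L-/-, 25.8 to 44.6 in floxed controls and 122 to 188 in Cpt2 L-/-, and it averaged 161 ± 57.8 CPM in DKO (SD, n = 4), above its floxed controls although labelled as deleted. Directions given for DKO therefore rest on the labels, and the study's own qRT-PCR and immunoblots of Rab30 in these genotypes were not analysed here. Summed CPM of 8 hepatocyte markers, with Alb and Apoa1 among them, was 99895 to 131256 in the floxed controls, 83561 to 99131 in Rab30 L-/-, 49850 to 58105 in Cpt2 L-/- and 64484 to 79050 in DKO.

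Per length of transcript, the members spanned a wide range. Mean FPKM over the 24 libraries was 1154 for Mug1, the gene at rank 51 of the whole table, and 740 for Pzp at rank 73. Mug2 had 27.9 FPKM (rank 1428) and A2ml1 0.675 (rank 11864), and A2m 0.0122. Mug1 and Pzp were thus among the most abundant liver transcripts, with Mug2 and A2ml1 well below them and A2m near the limit of detection.

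**Figure D1:**
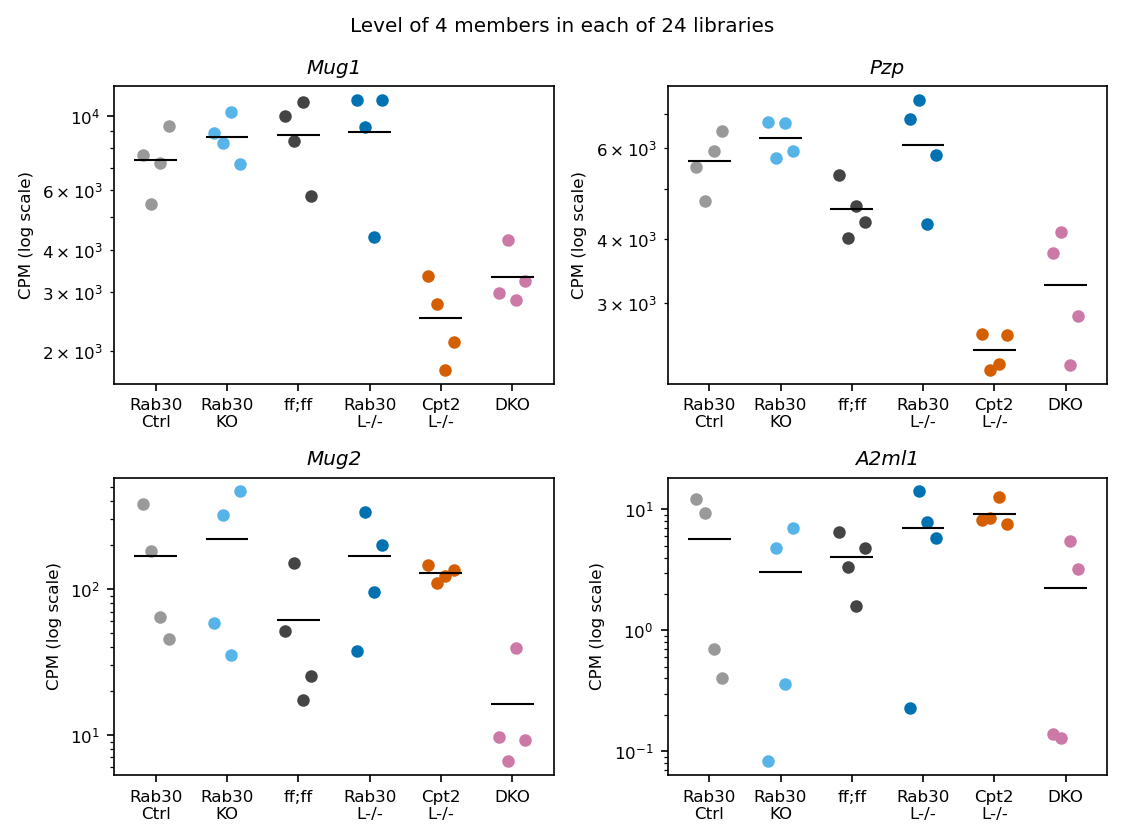
CPM of Mug1, Pzp, Mug2 and A2ml1 (y axes, log scale) in the 4 libraries of each of the 6 groups (x axis). Points are single livers and lines are group means. Mug1 was lower in every Cpt2 L-/- and DKO liver than in every other liver on this scale (by FPKM 1 Rab30 L-/- liver lay below 1 DKO liver), whereas the highest and lowest Mug2 values within Rab30KO, 470 and 35.4 CPM, differed 13.3-fold.

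Mug1 transcript was lower in livers without Cpt2, whether or not Rab30 was also deleted. Its level was 5759, 8406, 9976 and 10961 CPM in the 4 floxed control livers (8775 ± 2269, SD, n = 4) and 1760, 2128, 2770 and 3350 CPM in the 4 Cpt2 L-/- livers (2502 ± 703, SD, n = 4). The DKO livers had 2839, 2981, 3233 and 4274 CPM (3332 ± 649, SD, n = 4) and the Rab30 L-/- livers 4366, 9221, 11100 and 11153 CPM. The Cpt2 L-/- range lay below those of all groups with Cpt2. The highest DKO liver and the lowest Rab30 L-/- liver, the library with the most counts, were close, and their order depended on the scaling, at 4274 and 4366 CPM but 759 and 745 FPKM. Mug1 fell by 1.82 on the log2 scale (SE 0.25, adjusted p = 0.000227) in Cpt2 L-/- relative to floxed controls, a 3.53-fold difference. In DKO it fell by 1.41 (SE 0.23, adjusted p = 0.00177) relative to floxed controls and by 1.43 (SE 0.29, adjusted p = 0.00358) relative to Rab30 L-/-. These are edgeR quasi-likelihood tests with Benjamini-Hochberg adjustment over all genes tested. Genes with an adjusted p under 0.05 whose level changed 1.2-fold or more were called.

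Mug1 was not called in any comparison of Rab30 loss alone. In Rab30 Ctrl it stood at 5454, 7249, 7617 and 9296 CPM and in Rab30KO at 7171, 8269, 8882 and 10240 CPM. The log2 difference was 0.22 (SE 0.20) for the whole-body knockout and 0.03 (SE 0.31) for the liver knockout, and the difference between these effects was -0.21 (SE 0.38). Floxed controls differed from Rab30 Ctrl by 0.27 (SE 0.24, adjusted p = 0.691, edgeR). In these 4 comparisons edgeR called 0 of the 4 members tested, 0 had an unadjusted p under 0.05, and DESeq2 and limma called 0. The share of all tested genes called was 0.022% for whole-body loss, 0.479% for liver loss, 0.021% for the difference of these effects and 0.949% between the controls.

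Pzp, the main plasma alpha-2-macroglobulin, also fell in Cpt2 L-/- livers, with a smaller log2 difference than Mug1. Its level was 4006, 4315, 4628 and 5325 CPM in floxed controls (4568 ± 564, SD, n = 4) and 2223, 2280, 2594 and 2609 CPM in Cpt2 L-/- (2427 ± 204, SD, n = 4), so the groups did not overlap. Pzp fell by 0.92 (SE 0.16, adjusted p = 0.00114, edgeR), a 1.90-fold difference. In DKO livers Pzp was 2274, 2832, 3759 and 4132 CPM, and 1 of these lay inside the floxed control range. The log2 difference from floxed controls, -0.50 (SE 0.21), did not pass the test (adjusted p = 0.132, edgeR). Rab30 L-/- livers had 4270, 5825, 6841 and 7463 CPM, and Pzp in DKO fell by 0.91 (SE 0.24, adjusted p = 0.0138, edgeR) relative to them. These groups did not overlap in CPM, but by FPKM the highest DKO liver, at 660, lay above the lowest Rab30 L-/- liver, at 656.

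Rab30KO livers had 5749, 5928, 6726 and 6744 CPM of Pzp and Rab30 Ctrl livers 4729, 5513, 5935 and 6469 CPM, which overlap. The log2 difference was 0.15 (SE 0.16) for whole-body loss and 0.41 (SE 0.21) for liver loss, and neither was called. The floxed controls differed from Rab30 Ctrl by -0.29 (SE 0.18, adjusted p = 0.533, edgeR). The hepatocyte marker sums were below those of floxed controls in Cpt2 L-/- and DKO, and 4 of the 8 markers (Tat, Trf, Alb and Ttr) fell in Cpt2 L-/-, where 11.9% of all genes were called lower. Their part in the falls of Mug1 and Pzp was not tested. In Rab30 L-/- the sums were below those of floxed controls to a lesser extent. The median log2 difference of the 8 markers there was -0.16 with 0 called by edgeR, against -0.76 with 4 called in Cpt2 L-/-. In DKO relative to Rab30 L-/-, 6 of 8 Kupffer cell markers also fell and 1 rose, where 15.8% of all genes were called lower and 14.9% higher, and their summed CPM was 163 to 217 against 218 to 643. In DKO relative to floxed controls, whose sums were 169 to 305 CPM, 3 of the 8 fell (Cd5l, Clec4f and Csf1r) and Cd68 rose by 2.85 (SE 0.34, adjusted p = 0.000435, edgeR), where 8.24% of all genes were lower and 7.87% higher. The part of these cells in the falls of Mug1 and Pzp was not tested.

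**Figure D2:**
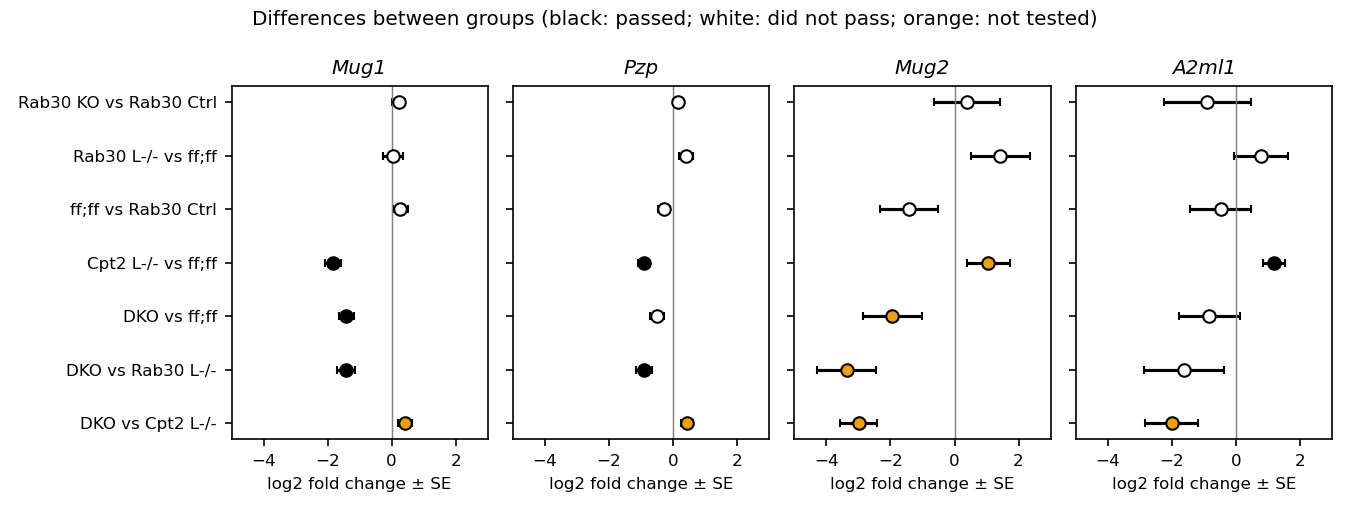
Log2 fold change with its standard error (x axis) of 4 members in 7 comparisons (y axis, first group relative to second), from edgeR fits to 4 against 4 libraries. Filled black points passed the test, white points did not, and orange points were not tested. Mug1 was at -1.82, -1.41 and -1.43 and Pzp at -0.92, -0.50 and -0.91 in the 3 tested comparisons in which Cpt2 differs, and the error bars of Mug2 and A2ml1 are wider. Of these 3, DKO relative to floxed controls differs in Rab30 as well.

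Mug2 varied from liver to liver far more than Mug1. In Rab30 Ctrl it stood at 45.7, 64.6, 181 and 383 CPM and in Rab30KO at 35.4, 58.4, 324 and 470 CPM. In each of these groups 2 livers were low and 2 were high, and the groups spanned nearly the same range. The log2 difference of Rab30KO from Rab30 Ctrl was 0.40 (SE 1.03), not called, and it turned to -0.27 without the Rab30KO liver at 470 CPM. Floxed controls had 17.3, 25.5, 51.2 and 151 CPM and Rab30 L-/- livers 37.6, 95.0, 200 and 337 CPM. These groups also overlapped, with a log2 difference of 1.43 (SE 0.93, adjusted p = 0.618, edgeR). The floxed controls differed from Rab30 Ctrl by -1.42 (SE 0.92, adjusted p = 0.582, edgeR), and the liver and whole-body effects of Rab30 loss differed by 1.02 (SE 1.41), neither of which was called. These values moved with single livers. Without the floxed control at 151 CPM they were 2.43, -2.41 and 2.01. The first was 0.84 without the Rab30 L-/- liver at 337 CPM, and the other two were -0.63 and 0.23 without the Rab30 Ctrl liver at 383 CPM.

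Cpt2 L-/- was the group with the narrowest Mug2 range, at 110, 123, 136 and 147 CPM, a 1.34-fold spread against 5.96-fold to 13.3-fold in the other 5 groups. A2ml1 was also narrowest there, at 1.67-fold against 4.03-fold to 84.8-fold, but Mug1 was not, at 1.90-fold against 1.43-fold in Rab30KO. The DKO livers had 6.57, 9.23, 9.69 and 39.2 CPM of Mug2, all below the lowest Cpt2 L-/- liver. The mean was 16.2 ± 15.4 CPM in DKO and 129 ± 16.1 CPM in Cpt2 L-/- (SD, n = 4). The log2 difference was -2.99 (SE 0.58), a 7.93-fold lower level in DKO, and it was -3.92 without the DKO liver at 39.2 CPM. As this is the difference that chose the gene, it is given as a description. Mug2 in 3 of the 4 DKO livers was lower than in all 20 livers of the other groups, and the remaining DKO liver lay within the range of floxed controls. Against floxed controls the log2 difference of DKO was -1.94 (SE 0.92), and that of Cpt2 L-/- was 1.06 (SE 0.66). Without the floxed control at 151 CPM these were -0.95 and 2.04, and without the DKO liver at 39.2 CPM the first was -2.86. Against Rab30 L-/- that of DKO was -3.37 (SE 0.92), with -4.28 without the same DKO liver and -2.77 without the Rab30 L-/- liver at 337 CPM. None of these differences of Mug2 was tested. Mug1 and Pzp stood slightly higher in DKO than in Cpt2 L-/-, by 0.42 (SE 0.21) and 0.43 (SE 0.18) on the log2 scale, but the values of both overlapped. Within this contrast, which chose Mug2 by its fall, the log2 differences of Mug1 and Mug2 had opposite signs. In all, 2.71% of the 13306 genes tested there passed the thresholds, and values of DKO lay wholly below those of Cpt2 L-/- for 6.73%.

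Because Mug1 and Mug2 are near copies, reads between them may have been split by the authors' counting, and Mug2 values are uncertain to that extent. Of the 4530 windows of 50 bases in the Mug2 transcript, 21.3% also occurred in a Mug1 transcript and 37.1% in one of the pseudogene Mug-ps1, which starts 90.0 kb after Mug2. For windows of 100 bases these shares were 5.4% and 23.1%. The ratio of Mug2 to Mug1 counts was 0.154 to 1.38 per 100 in DKO livers, 3.96 to 7.0 in Cpt2 L-/- livers, 0.158 to 1.80 in floxed controls and 0.346 to 6.56 in Rab30KO. It was 0.492 to 5.03 in Rab30 Ctrl and 0.337 to 3.66 in Rab30 L-/-. Mug1 itself differed between groups, so the ratio does not show how far reads were split, which was not tested.

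The spread within groups was compared over the 12758 genes with a mean of at least 1 CPM. The pooled standard deviation of log2 CPM within groups was 1.31 for Mug2, rank 106, and 1.99 for A2ml1, rank 25, against a median of 0.305. Mug1 was at 0.401 and Pzp at 0.251, on either side of that median. Mug1 thus varied somewhat more than most genes and Pzp somewhat less, and the less abundant relative Mug-ps1 was at 0.289.

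A2ml1 had few reads, 1 to 212 per library, and its level differed widely within groups. It stood at 0.406, 0.695, 9.33 and 12.3 CPM in Rab30 Ctrl and at 0.0823, 0.361, 4.77 and 6.98 CPM in Rab30KO. Rab30 L-/- livers had 0.226, 5.76, 7.88 and 14.2 CPM and DKO livers 0.129, 0.139, 3.23 and 5.46 CPM. Floxed controls, at 1.60, 3.37, 4.76 and 6.46 CPM, and Cpt2 L-/- livers, at 7.61, 8.19, 8.43 and 12.7 CPM, held no liver under 1 CPM and did not overlap. A2ml1 rose by 1.19 on the log2 scale in Cpt2 L-/- relative to floxed controls (SE 0.34, adjusted p = 0.0217, edgeR). That call was lost when 1 Cpt2 L-/- liver at 12.7 CPM (adjusted p = 0.0722, edgeR) or 1 floxed control at 3.37 CPM (adjusted p = 0.0611, edgeR) was left out, and in a fit that shared its spread with all 24 libraries (adjusted p = 0.495, edgeR). In DKO, A2ml1 differed by -0.83 (SE 0.95) from floxed controls and by -1.62 (SE 1.24) from Rab30 L-/-, neither called, and it stood at -2.01 (SE 0.84) against Cpt2 L-/-, which was not tested. Without the DKO liver at 5.46 CPM the first was -1.70 and the second -2.45. The first was -0.44 without the DKO liver at 0.129 CPM, and the second -1.04 without the Rab30 L-/- liver at 14.2 CPM.

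In Cpt2 L-/- against floxed controls, 2 of the 3 tested members thus fell and 1 rose, where 23.8% of all 13270 genes tested were called. Lower calls were 11.9% and higher calls 11.9%, and values lay wholly below the other group for 12.5% and wholly above it for 14.2%. In DKO, 1 of 3 fell relative to floxed controls, where 16.1% of 13389 genes were called (8.24% lower and 7.87% higher) and 9.92% lay wholly below. Relative to Rab30 L-/-, 2 of 3 fell, where 30.7% of 13292 genes were called (15.8% lower and 14.9% higher) and 15.5% lay wholly below. The floxed controls serve several of these comparisons, so the values are not independent of each other.

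A2m was barely detected. It had 0 counts in 13 of the 24 libraries, among them all 4 DKO livers, and 5 counts at most. A count of 3 would be 0.149 to 0.222 CPM before TMM scaling in the DKO libraries, so lower levels could not be seen at this depth, and A2m was not tested in any comparison.

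**Figure D3:**
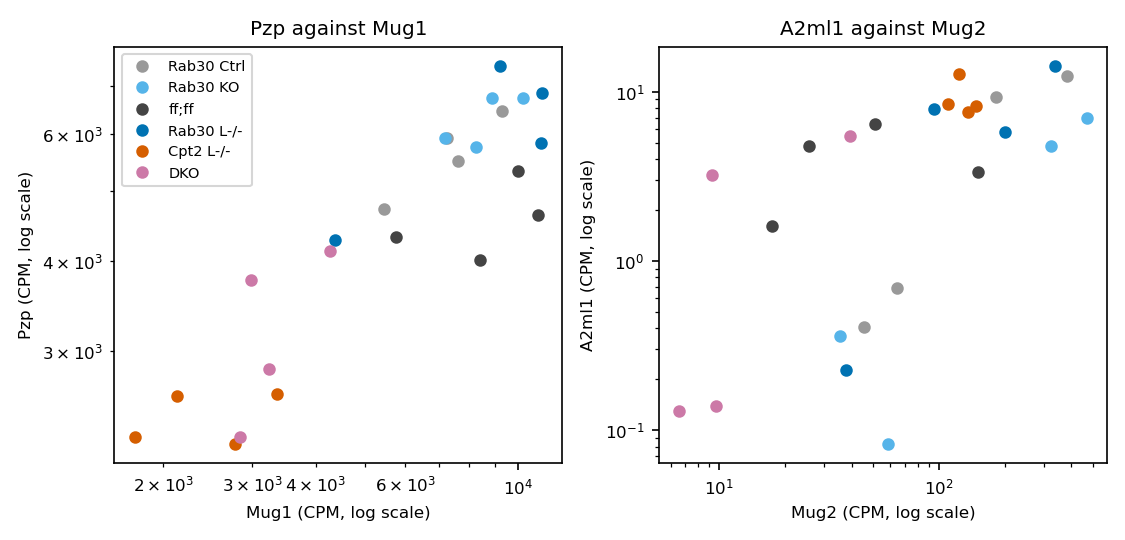
Pzp against Mug1 (left) and A2ml1 against Mug2 (right) in CPM on log axes, 1 point per liver and coloured by group. Livers high in Mug1 were high in Pzp (r = 0.90 on the log2 scale), and A2ml1 tended to be low where Mug2 was low (r = 0.66).

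The members formed 2 pairs by their pattern over the 24 livers. On the log2 scale, Pearson's r was 0.90 between Mug1 and Pzp and 0.66 between Mug2 and A2ml1, but 0.15 between Mug1 and Mug2. After the mean of each group was subtracted, r was 0.65 for Mug1 with Pzp, 0.81 for Mug2 with A2ml1 and -0.23 for Mug1 with Mug2. These are descriptions over livers that share groups. In Rab30 Ctrl, the livers with 383 and 181 CPM of Mug2 had 12.3 and 9.33 CPM of A2ml1, and those with 64.6 and 45.7 CPM had 0.695 and 0.406. In Rab30KO, the livers with 470 and 324 CPM of Mug2 had 6.98 and 4.77 CPM of A2ml1, and those with 58.4 and 35.4 CPM had 0.0823 and 0.361. The order was looser elsewhere. Among floxed controls the liver with 151 CPM of Mug2 had 3.37 CPM of A2ml1, below those with 51.2 and 25.5 CPM, which had 6.46 and 4.76. In DKO, the livers with 9.69 and 9.23 CPM of Mug2 had 0.139 and 3.23 CPM of A2ml1.

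Of all genes, the one most like Mug2 was Gm10319, a transcribed pseudogene 50.7 kb after it (r = 0.834). Next were Wnt5b, a secreted Wnt ligand 2.46 Mb before it on the same chromosome (r = 0.811), Tm4sf1 on chromosome 3 (r = 0.746), the zinc finger gene Zfp111 on chromosome 7 (r = 0.745) and the pseudogene Adh6-ps1 on chromosome 3 (r = 0.743). The likeness to Gm10319 and Wnt5b was 0.82 for each after group means were subtracted. Of the Gm10319 transcript's 50-base windows, 17.1% occurred in a Mug2 transcript (8.0% at 100 bases), so these 2 genes may share reads. Of 165 other genes within 10 Mb of Mug2, 7 (4.24%) had an r of at least 0.5 with it, and of all 12757 genes 188 (1.47%) did. These r values include the DKO and Cpt2 L-/- livers, whose difference chose Mug2. Gm10319, which may share reads with Mug2, was among the 7. The shares are therefore descriptions, and whether likeness to Mug2 is more frequent near it was not tested.

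**Figure D4:**
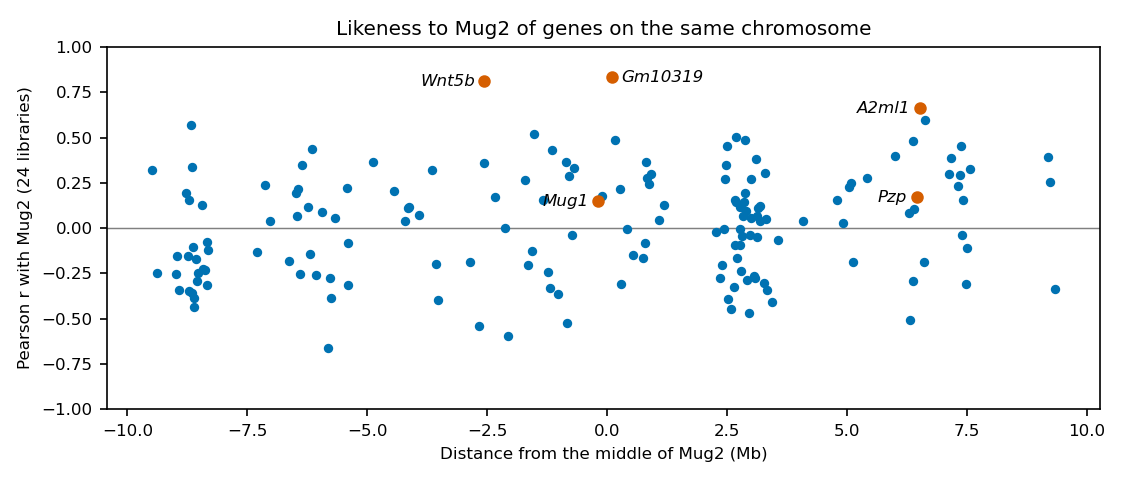
Pearson's r with Mug2 over 24 livers (y axis) of the 165 other genes with at least 1 CPM within 10 Mb of Mug2, by their distance from its middle in Mb (x axis). Orange points mark Gm10319, Wnt5b, A2ml1, Mug1 and Pzp. Gm10319 (r = 0.834) and Wnt5b (r = 0.811) are the highest points, and Mug1 is at 0.15.

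Mug1 was most like the long noncoding RNA Gm31583 (r = 0.954), the coagulation protease gene F11 (r = 0.929), the transcription factor gene Zhx3 (r = 0.927), the R-spondin receptor gene Lgr4 (r = 0.922) and Plg, which codes for plasminogen (r = 0.914). F11 and Plg encode precursors of proteases that alpha-2-macroglobulins can trap. Pzp was most like F5, a coagulation cofactor, Cyp3a59, a cytochrome P450, and 5830473C10Rik, each at 0.933, followed by the complement protease gene C2 (r = 0.932) and Zcchc24 (r = 0.930). A2ml1 was most like the mitochondrial ribosome gene Mrpl46 (r = 0.762), the pseudogene Gm7336 (r = 0.747), Zfp830 (r = 0.743), the RNase P subunit gene Rpp21 (r = 0.730) and Coil (r = 0.720).

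The pseudogenes of the cluster did not all move together. Mug4-ps, 27.4 kb after Mug1, stood at 21.9 to 30.2 CPM in floxed controls, 5.89 to 10.4 in Cpt2 L-/- and 6.70 to 8.65 in DKO, and fell by 1.79 (SE 0.21, adjusted p = 5.28e-05, edgeR) in Cpt2 L-/- and by 1.78 (SE 0.17, adjusted p = 7.18e-05, edgeR) in DKO relative to floxed controls. It shares 14.5% of its 50-base windows with Mug1 (4.1% at 100 bases), so reads of the 2 genes may be mixed. Mug-ps1, 90.0 kb after Mug2, differed from floxed controls by -0.23 (SE 0.20) in Cpt2 L-/- and by -0.32 (SE 0.19) in DKO, neither called, and fell by 0.80 (SE 0.15, adjusted p = 0.00236, edgeR) in DKO relative to Rab30 L-/-. Of its 50-base windows, 30.9% occurred in a Mug2 transcript and 13.4% in a Mug1 transcript, so it may hold their reads.

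Complement C3, C4 and C5 are relatives of the family, and C5 lacks the thioester. C3, Hc and C4a were lower in livers without Cpt2. In Cpt2 L-/- relative to floxed controls, C3 fell by 0.75 (SE 0.22, adjusted p = 0.024, edgeR) and Hc, the gene of complement C5, by 1.18 (SE 0.18, adjusted p = 0.000452, edgeR). C4a fell by 3.36 (SE 0.33, adjusted p = 4.18e-05, edgeR), while its near copy C4b was at -0.67 (SE 0.27) and not called, and reads of these copies cannot be fully told apart. Of the 5 relatives tested, these 4 complement genes and Mug-ps1, 3 were called lower there, with a median of -0.75 against 0.00 over all genes. In DKO, 4 of 5 were called lower relative to floxed controls and 5 of 5 relative to Rab30 L-/-, with medians of -0.96 and -1.48. Mug-ps1, a pseudogene that may hold reads of Mug1 and Mug2, was called only relative to Rab30 L-/-. Of all genes tested, 11.9% were called lower in the first of these comparisons, 8.24% in the second and 15.8% in the third.

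Among 5 clearance receptor genes tested, Lrp1, the receptor that removes the complexes, fell by 0.82 (SE 0.21, adjusted p = 0.0115, edgeR) in Cpt2 L-/- and by 0.85 (SE 0.23, adjusted p = 0.0268, edgeR) in DKO relative to floxed controls. Its chaperone gene Lrpap1 fell by 0.41 (SE 0.13, adjusted p = 0.0368, edgeR) in the first of these comparisons and by 0.46 (SE 0.13, adjusted p = 0.0351, edgeR) in the other. Vldlr, a related receptor, rose by 2.69 (SE 0.63, adjusted p = 0.0219, edgeR) in DKO. Of the 5 genes, 2 were called lower in Cpt2 L-/-, where 11.9% of all genes were. In DKO 2 were called lower and 1 higher, where 8.24% and 7.87% of all genes were. Lrp1 was thus lower in the same groups as Mug1.

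Other plasma protease inhibitors, such as serpins and inter-alpha-trypsin inhibitors, were mostly lower in the same groups. Of 37 tested, 25 were called lower and 3 higher in Cpt2 L-/- relative to floxed controls, with a median of -0.96, and 22 were lower and 2 higher in DKO, with a median of -0.79. Of all genes tested, 11.9% were called lower and 11.9% higher in Cpt2 L-/-, and 8.24% and 7.87% in DKO. Serpind1, heparin cofactor II, fell by 2.93 (SE 0.25, adjusted p = 7.4e-06, edgeR) in Cpt2 L-/-, and Serpinf2, the inhibitor of plasmin, fell by 1.61 (SE 0.17, adjusted p = 0.000125, edgeR) in DKO. Serpina1a, Serpina1b and Serpina1d, alpha-1-antitrypsin genes that are near copies of each other, stood 1.55 to 1.69 lower in Cpt2 L-/- (differences of -1.65, -1.55 and -1.69), with their reads uncertain among the copies.

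Of 25 tested proteases of the kind that these inhibitors act on, 13 were called lower and 1 higher in Cpt2 L-/-, and 12 and 1 in DKO, relative to floxed controls, where 11.9% and 8.24% of all genes were called lower. F7 fell by 1.56 (SE 0.15), Plg by 1.61 (SE 0.18) and F11 by 1.75 (SE 0.20) in Cpt2 L-/-, with adjusted p of 1.2e-05, 4.1e-05 and 5.59e-05 (edgeR). Of 25 genes of IL-6 signalling and the acute phase, 11 were called lower and 0 higher in Cpt2 L-/- (11.9% of all genes lower), relative to floxed controls. Il6ra, the receptor for IL-6, fell by 1.88 (SE 0.20, adjusted p = 3.17e-05, edgeR), and Saa4, a serum amyloid A gene, fell by 4.37 (SE 0.22, adjusted p = 1.91e-07, edgeR). In DKO, 10 were lower and 1 higher (8.24% and 7.87% of all genes), and the fibrinogen genes Fga and Fgg were at -2.06 (SE 0.20, adjusted p = 8.14e-05, edgeR) and -2.19 (SE 0.22, adjusted p = 9.37e-05, edgeR). With Rab30 deleted alone, edgeR called 0 of the 97 genes tested from these 5 lists, and 2 (2.06%) had an unadjusted p under 0.05 for whole-body loss and 16 (16.5%) for liver loss, against 2.21% and 11.2% of all genes tested. In Rab30 L-/- relative to floxed controls, the list medians were 0.17 to 0.54. The hepatocyte marker sums were lower in Cpt2 L-/- and DKO, and their part in the counts of these lists was not tested.

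**Figure D5:**
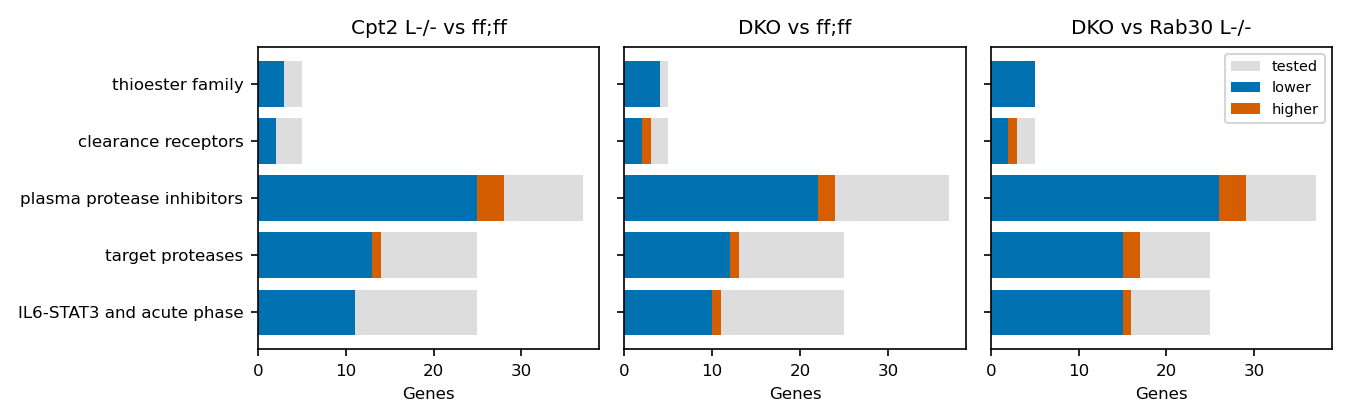
Genes tested (grey), called lower (blue) and called higher (orange) in each of 5 lists (y axis) in the 3 tested comparisons in which Cpt2 differs, with the number of genes on the x axis. Of these 3, DKO relative to floxed controls differs in Rab30 as well. In Cpt2 L-/- relative to floxed controls, 25 of 37 plasma protease inhibitors were lower and 3 higher.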

How the data were processed

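RNA was sequenced from 24 livers, and the libraries were prepared by a sequencing company. The submitters' processing notes name HISAT2, DESeq2 and the GRCm38 (mm10) build. The counter, annotation and strand setting are not given in the sources used here. Raw counts for each gene were deposited by the authors, as were FPKM, which divide counts by gene length and library size. A normalized table and tables of the authors' own fold changes and p-values were not used.

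Counts were tested as deposited. After filterByExpr and TMM scaling, each comparison was fitted to its own 8 libraries (16 for the difference of Rab30 effects) by quasi-likelihood (glmQLFit with robust estimation, edgeR 4.0.16, R 4.3.3), with Benjamini-Hochberg adjustment over all genes tested. CPM were scaled by TMM over all 24 libraries, and log2 CPM used a prior count of 2. FPKM were used for levels between genes and, beside CPM, for the order of livers and groups of a member. DESeq2 1.42.0 and limma 3.58.1 served as alternatives. The fits were tested on simulated data. Sequences came from GENCODE M21 and RefSeq (GRCm38.p6) and were aligned in Biopython 1.88. Every pair of libraries within a group differed by more than counting noise. The study's methods call the 4 livers of a genotype biological replicates, and p-values measure the spread between them. Limits from a count of 0 cover counting error only, since reads are not unique molecules.

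Members and gene lists were chosen with earlier results of these data known. The text names every member, the detected thioester relatives, the 5 genes most like each member over 24 libraries, and up to 4 called genes per list and comparison by smallest adjusted p. The neighbours named are called genes within 500 kb of a member, by the same order.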

Additional observations from a re-analysis of the deposited data

How the results depend on the processing

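The number of members called in each comparison was unchanged under DESeq2 size factors, the DESeq2 Wald test and no filter on low counts. In the fit over all 24 libraries it changed only for Cpt2 L-/- against floxed controls, from 3 to 2. With limma-voom and sample quality weights, 2 members were called in DKO relative to floxed controls in place of 1, because A2ml1 stood at -3.29 (adjusted p = 0.00977, limma). Under the same weights A2ml1 stood at -4.54 between DKO and Cpt2 L-/-, against -2.01, and at 0.68 between floxed controls and Rab30 Ctrl, against -0.48. It stood at -3.77 between DKO and Rab30 L-/-, against -1.62, with no change of call. Mug2 between the controls moved from -1.42 to -0.74 and Pzp in DKO against floxed controls from -0.50 to -0.28. For Mug2 in DKO, which was not tested, the weights moved the difference from -2.99 to -3.67 against Cpt2 L-/-, from -1.94 to -2.65 against floxed controls and from -3.37 to -4.03 against Rab30 L-/-. The cause was not tested. By the authors' FPKM in place of CPM, 2 groups of Mug2 changed rank, Rab30 Ctrl and Rab30 L-/- trading places, and no group of the other members did.

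When each library was left out in turn, 2 to 3 members were called in Cpt2 L-/- relative to floxed controls, 1 to 1 in DKO relative to floxed controls and 2 to 2 relative to Rab30 L-/-, and 0 to 0 in the comparisons of Rab30 loss alone and of the controls. The log2 difference between DKO and Cpt2 L-/- ranged from 0.28 to 0.59 for Mug1, -3.92 to -2.73 for Mug2, 0.29 to 0.56 for Pzp and -2.84 to -1.62 for A2ml1. Signs turned only for values that were not called. Mug1 in Rab30 L-/- ranged from -0.13 to 0.26 and Mug2 in Rab30KO from -0.27 to 1.22. A2ml1 between the controls ranged from -0.86 to 0.21, and the difference of Rab30 effects on Mug1 from -0.38 to 0.02. No paired analysis was possible because the labels give the groups no shared replicate numbers. Depth limits A2m and A2ml1, and copies limit Mug2.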

Other observations

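Of the other genes within 500 kb of a member, 21 passed the filter in Cpt2 L-/- against floxed controls, and 2 were called higher and 4 lower, where 23.8% of all genes tested were called. Slc6a13 and Slc6a12, which code for carriers of GABA and betaine, fell by 1.06 (SE 0.17, adjusted p = 0.000639, edgeR) and 0.69 (SE 0.18, adjusted p = 0.0149, edgeR). M6pr, a receptor that sorts lysosomal enzymes, rose by 0.61 (SE 0.14, adjusted p = 0.00696, edgeR). In DKO relative to floxed controls, 6 of 21 were called lower and 0 higher, where 16.1% of all genes were called (8.24% lower), with the cochaperone gene Fkbp4 falling by 0.83 (SE 0.18, adjusted p = 0.00735, edgeR) and Gm10319 by 1.06 (SE 0.26, adjusted p = 0.0151, edgeR). In DKO relative to Rab30 L-/-, 7 of 21 were lower and 1 higher, where 30.7% of all genes were called (15.8% lower), among them Usp18, a protease that removes ISG15, at -1.47 (SE 0.17, adjusted p = 0.000129, edgeR). With Rab30 deleted alone, edgeR called 0 neighbours, of 26 tested for whole-body loss and 24 for liver loss, and 1 (3.85%) and 5 (20.8%) had an unadjusted p under 0.05, against 2.21% and 11.2% of all genes tested.

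Summed CPM of 8 Kupffer cell markers was 169 to 305 in floxed controls and 372 to 616 in Rab30 Ctrl, and 4 of the 8 were called lower in floxed controls than in Rab30 Ctrl, where 0.949% of all genes were called. Cd68, a lysosomal protein used as a macrophage marker, rose by 2.60 (SE 0.22, adjusted p = 6.23e-06, edgeR) in Cpt2 L-/- relative to floxed controls, while Clec4f, Vsig4 and Timd4 fell. Of markers of other liver cells, the bile duct gene Sox9 fell by 2.26 (SE 0.35, adjusted p = 0.000446, edgeR) and the endothelial gene Clec4g by 0.65 (SE 0.17, adjusted p = 0.013, edgeR) there. In DKO relative to Rab30 L-/-, 2 of 7 endothelial markers tested were called higher and 2 of 4 bile duct markers lower, against 14.9% and 15.8% of all genes.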
